A study of Mus musculus with 14 samples.

Results

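The cells described here are the Hox-positive, Atoh1-high intermediate progenitors of the mouse hindbrain at E14.5. They were chosen by their own transcript counts. A kept cell (at least 1000 detected genes and under 10% mitochondrial unique molecular identifiers, UMIs) was a member when it held at least 4 UMIs of Atoh1, at least 1 of Pax6 and at least 2 of Hoxb2, Hoxb3 and Hoxb4 together, no more than 2 of Ccnd1, none of Nhlh1 and no more than 4 of Mapt. By this rule 1131 of 49696 kept cells were members.

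The study profiled single cells of the Atoh1 lineage to ask how a partial loss of Atoh1 function alters the development of the pontine nuclei. Of its 14 libraries 6 were from E14.5, each from the hindbrain of 1 embryo of the C57BL/6J strain, with 3 embryos per genotype. Control embryos were Atoh1 Cre/+; Rosa lsl-tdTomato/+ and mutant embryos (Atoh1S193A/-) were Atoh1 Cre/S193A; Rosa lsl-tdTomato/+. The Cre knock-in replaces the coding region of Atoh1, so the control embryos also carried 1 null copy, and S193A is a hypomorphic allele in which a serine of the protein is changed to alanine. Cells were sorted as TdTom+ DAPI-, so the label marks any cell whose lineage has expressed Atoh1. Each mutant was collected with a littermate control, and embryos of the same number are called a pair.

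ATOH1 is a basic helix-loop-helix transcription factor that binds E-box sequences and is made in the rhombic lip, the dorsal germinal zone of the hindbrain. At the caudal rhombic lip, progenitors that switch on Atoh1 leave the cell cycle and migrate along the anterior extramural stream to form the pontine nuclei, which relay cortical signals to the cerebellum. The state with the highest Atoh1 lies between the cycling progenitors, marked by the cyclin gene Ccnd1, and the migrating neurons, marked by Nhlh1. In the Notch pathway, ligands such as DLL1 on a differentiating cell activate NOTCH receptors on its neighbours, and the receptors switch on HES genes that hold those neighbours as progenitors.

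The members numbered 163, 97 and 152 in controls 1 to 3 and 302, 159 and 258 in mutants 1 to 3. Their median depth lay between 14670 and 18866 UMIs per cell. No cell barcode was shared between the members of different libraries. Libraries of controls 1 and 2 were written by Cell Ranger 3.1.0 and the other 4 by 5.0.1, so that version and genotype are partly confounded. In the members 1 gene, the long noncoding RNA AC160336.1, was at least 4 times higher in both of these libraries than in each of the others (384 and 575 CPM, counts scaled to a common library total, against 2.58 to 3.09), and none was at least 4 times lower at 10 CPM or more.

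Few cells lay close to most of the limits of the rule. With all other limits met, 99 cells held 4 Atoh1 UMIs and 95 held 3, 11 cells held 1 Pax6 UMI and 9 held none, 71 cells held 2 Ccnd1 UMIs and 37 held 3, and 14 cells held 4 Mapt UMIs and 9 held 5. The Hoxb and Nhlh1 limits had more cells just outside. For the Hoxb sum, 66 members held 2 UMIs and 255 cells held 1, and 434 cells met every other limit with 1 UMI of Nhlh1. The Hoxb sum of the members had a median of 12 to 16 UMIs per library, so most members were far above that limit. Members at 2 Hoxb UMIs numbered 3, 2 and 4 in controls 1 to 3 and 23, 12 and 22 in mutants 1 to 3, so most were mutant cells.

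The labelled identity was checked against the markers Barhl1, Dll1 and Hes5, which the rule did not use. The comparison states were taken by gates on the same rule genes, so differences between states are descriptions. They were the Hox-positive progenitors (at least 3 Ccnd1 UMIs and no more than 3 of Atoh1), the Nhlh1-positive migrating cells (at least 2 Nhlh1 UMIs) and the Mapt-high differentiated cells (at least 10 Mapt UMIs). Dll1, a Notch ligand, was at 88.6 ± 66.4 CPM (SD, n = 6 libraries) in the members, against 7.39 ± 2.72 in the progenitors, 16.7 ± 7.08 in the migrating cells and 10.5 ± 1.99 in the differentiated cells. It was higher in the members than in all 3 neighbours in 6 of 6 libraries. Hes5, a target of Notch signalling, was at 672 ± 201 CPM in the members and at 598 ± 190 in the progenitors, and was at 38.9 ± 18.3 in the migrating cells. Barhl1, a homeobox gene of the Atoh1 lineage, was at 752 ± 165 CPM in the members and 761 ± 107 in the migrating cells, against 21.3 ± 23.5 in the progenitors. Hes5 and Barhl1 each exceeded all 3 neighbours in 3 of 6 libraries, so the members did not stand above the progenitors in Hes5 or above the migrating cells in Barhl1.

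In single cells, 88.4% of the members had a Barhl1 UMI, 53.8% had one of Dll1 and 79.0% had one of Hes5. The same shares were 12% for Barhl1 and 10.6% for Dll1 in the progenitors, whose median depth was 18500.5 to 20817 UMIs, and 17.1% for Hes5 in the migrating cells, at 17227 to 22222 UMIs. All 3 markers were seen together in 472 members (41.7%), and 12 (1.06%) had none. The transcript of the reporter, read through its WPRE element, was found in 98.9% of the members and in 87.8% of the remaining kept cells.

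A UMI of the cycling markers Mki67 or Top2a was present in 19.0% to 29.5% of the members per library. This lay between the progenitors (54.0% to 77.4%) and the migrating cells (5.10% to 11.8%).

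Among the 2657 genes at 50 CPM or more in every member library, 53 exceeded the highest of the 3 neighbouring states by at least 1.5 times on average, and 262 were higher than all 3 neighbours in each of the 6 libraries. The 8 with the highest ratio were S100a6, Nkd1, Otx2, Mycl, Hes6, Gadd45g, Hsd11b2 and Chodl. All 8 were above all neighbours in 6 of 6 libraries. S100a6, a calcium-binding protein gene, was at 388 ± 103 CPM in the members, 6.28 times its level in the migrating cells, the next highest. Nkd1, a feedback inhibitor of Wnt signalling, was at 666 ± 80.5 CPM against 136 ± 28.9 in the progenitors. Gadd45g, a growth arrest gene, was at 1657 ± 586 CPM against 489 ± 156 in the migrating cells, and Hes6, an antagonist of HES1, at 801 ± 169 against 205 ± 54.0.

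The other 4 genes were less abundant. Mycl, of the MYC family, was at 167 ± 43.8 CPM against 41.8 ± 6.85 in the migrating cells. Hsd11b2, which inactivates glucocorticoids, was at 324 ± 111 CPM against 109 ± 28.7 in the migrating cells and 5.04 ± 3.34 in the progenitors. Chodl, a transmembrane lectin-like gene, was at 94.8 ± 15.9 CPM against 35.4 ± 9.67 in the progenitors. Otx2, a homeobox gene of the forebrain and midbrain and of the choroid plexus, was at 140 ± 61.2 CPM in the members against 29.2 ± 8.74 in the progenitors, and only 32.5% of the members had a UMI of it.

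**Figure D1:**
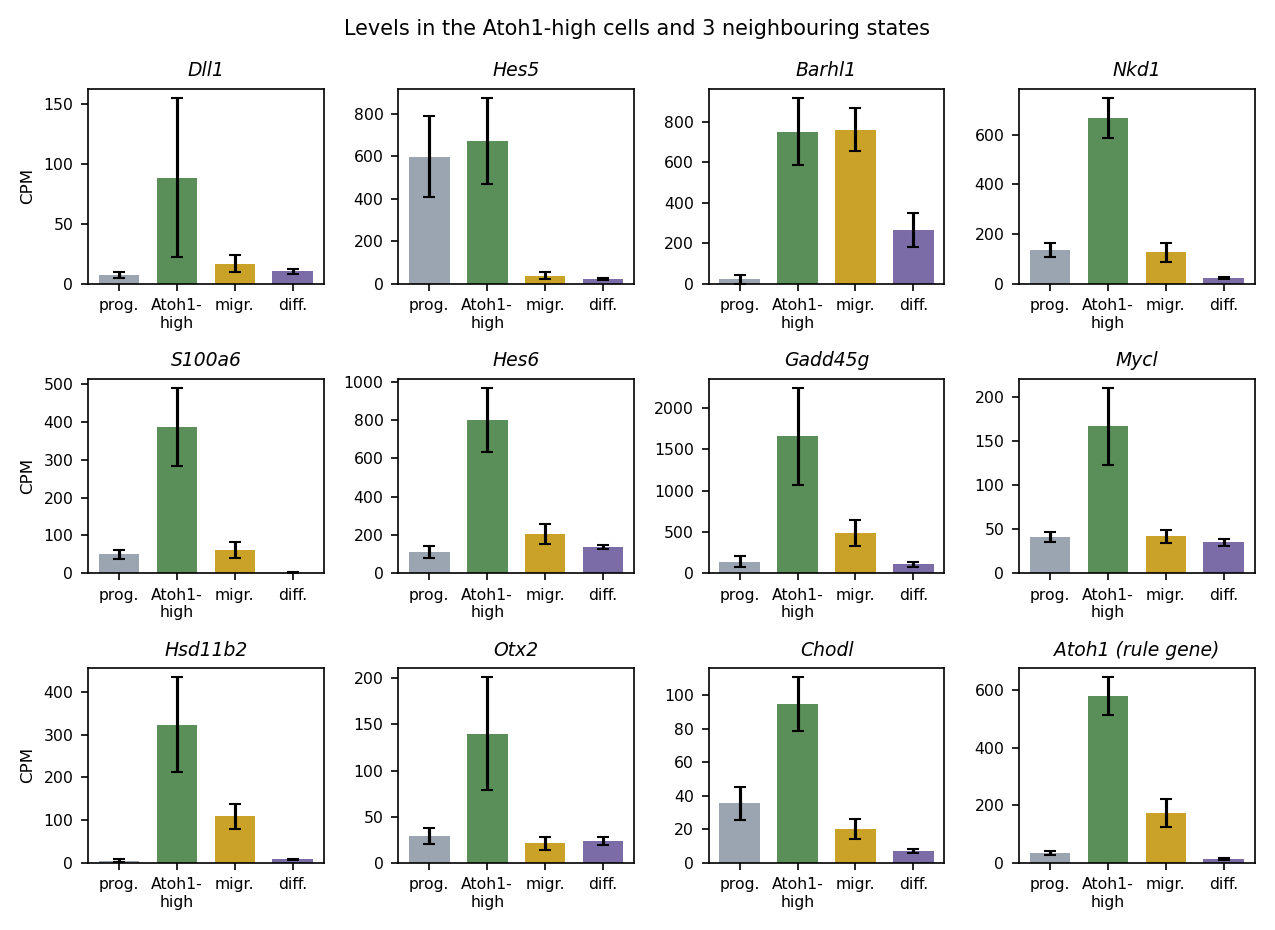
Mean CPM (y axis, from 0) in the Hox-positive progenitors, the Atoh1-high members, the Nhlh1-positive migrating cells and the Mapt-high differentiated cells, with bars for the mean and error bars for the SD over 6 libraries. Dll1 and the 8 genes with the highest ratio peak in the members, Hes5 is shared with the progenitors (672 and 598 CPM) and Barhl1 with the migrating cells (752 and 761 CPM). Atoh1 chose the cells.

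The gene lists differed in the state where their genes were highest. Counting genes at 50 CPM or more in the members, 4 of 5 genes of the Notch effector list and 2 of 2 Notch ligands were highest in the members. That list holds Hes6 and Gadd45g, and Hes5 exceeded all 3 neighbours in 3 of 6 libraries only. Nrarp, of the same list but below 50 CPM, was at 20.3 ± 6.25 CPM in the progenitors and 10.1 ± 2.29 CPM in the members. The receptor gene Notch1 was at 117 ± 19.4 CPM in the progenitors and 65.1 ± 16.1 CPM in the members. All 11 S phase genes, all 22 G2 and M phase genes and 13 of 14 rhombic lip progenitor genes were highest in the progenitors. Of 16 precerebellar and dorsal interneuron transcription factors, 11 were highest in the migrating cells and 3 in the members, and 28 of 29 genes of neuron differentiation and the cytoskeleton were highest in the migrating (10) or differentiated (18) cells. Of 30 ribosomal protein genes 23, and of 19 genes of migration and axon guidance 9, were highest in the members. Of all 3149 genes at that level outside the rule, 25.3% were highest in the members, 31.8% in the progenitors, 17.8% in the migrating cells and 25.1% in the differentiated cells.

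The first comparison between genotypes was of the size of the state. The members made up 2.54%, 1.10% and 1.56% of kept cells in controls 1 to 3 and 3.80%, 1.91% and 3.05% in mutants 1 to 3. The exact binomial 95% intervals, which cover counting error only, ran from 2.17% to 2.96% in control 1 and from 3.39% to 4.24% in mutant 1. The mutant library was higher than its littermate control in 3 of 3 pairs, but the genotypes overlapped. The means were 1.73 ± 0.74% and 2.92 ± 0.95% (SD, n = 3 each), a difference of 1.19 percentage points, and an exact two-sided permutation test over libraries gave p = 0.2, with 0.1 the smallest p that 3 against 3 can give. A paired exact sign-flip test gave p = 0.25, the smallest that 3 pairs can give.

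Among the cells positive for Pax6 and Hoxb transcripts, the members were 10.3%, 5.34% and 6.39% in controls and 12.5%, 9.42% and 9.88% in mutants. The means were 7.36 ± 2.64% and 10.6 ± 1.66% (exact permutation p = 0.3). The share was again higher in the mutant of every pair, by 3.24 percentage points on average, and the genotypes overlapped. The Nhlh1 limit bears on both shares. Cells that met every other limit with 1 Nhlh1 UMI numbered 91, 57 and 65 in controls, beside 163, 97 and 152 members. In mutants they numbered 78, 58 and 85, beside 302, 159 and 258 members. Relative to its members, every control thus lost more cells at this limit than every mutant, and the shares with these cells were not tested.

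**Figure D2:**
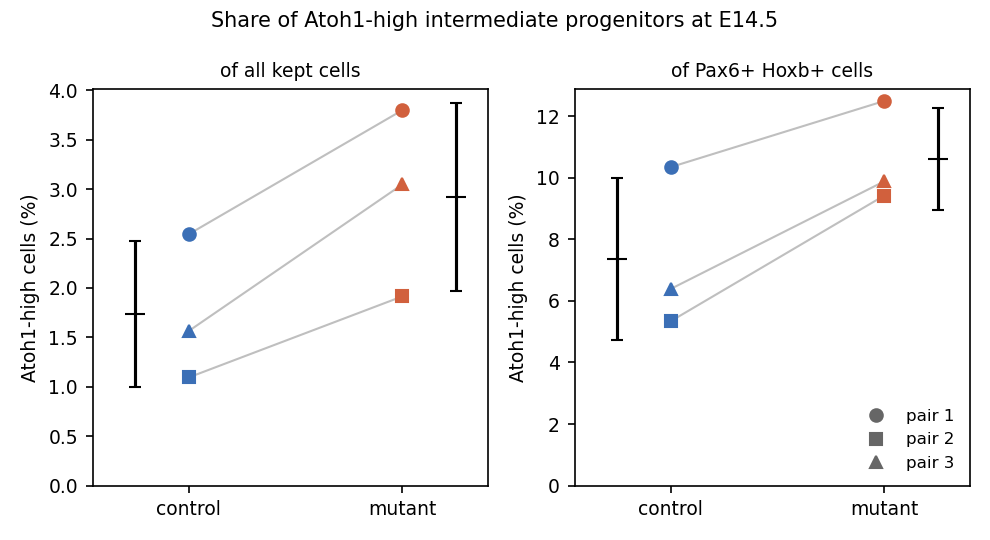
Share of Atoh1-high members (y axis, percent, from 0) among all kept cells (left) and among Pax6 and Hoxb positive cells (right), with 1 point per embryo, grey lines joining littermates, and the mean with SD of 3 embryos in black. The mutant lies above its littermate in every pair, by 1.19 percentage points on average in the left panel, and the genotypes overlap.

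The second comparison asked which genes differed between genotypes within the members. UMIs were summed per embryo, and 9598 genes were tested by the edgeR quasi-likelihood test, with the Benjamini-Hochberg false discovery rate (FDR) under 0.05 and an absolute log2 change over 0.25 for a call. The 8 genes of the rule were left out of the test. The Nhlh1 limit, at which every control lost more cells relative to its members than every mutant, bears on these values too. Its part in them was not tested. In all 5 genes were called, 0.0521% of those tested, of which 1 rose (Hrk, 0.0104%) and 4 fell (Rab15, Svil, Selenom and Gm17322, 0.0417%) in the mutant, and 447 (4.66%) had an unadjusted p under 0.05. Levels are given as CPM scaled by TMM.

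Hrk, a proapoptotic BH3-only member of the BCL2 family, was at 12.6, 7.66 and 9.55 CPM in controls 1 to 3 and at 58.5, 33.3 and 46.3 CPM in mutants 1 to 3. Every mutant was above every control. The log2 change was 2.18 ± 0.26 (SE; edgeR adjusted p = 0.0387), a 4.54-fold rise. A Hrk UMI was found in 6.19% to 10.4% of the control members and in 11.9% to 29.5% of the mutant members. Over all embryos, 13.0% of the Hox-positive progenitors and 24.3% of the Nhlh1-positive migrating cells had one. Over each genotype the shares of members were 8.98% and 24.2%, so Hrk reached the 10% detection filter through the mutant members, where it was high. Hrk was found in 18.7% of all members and was also called without the filter.

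Rab15, which encodes a small GTPase of endosomal recycling, was at 136, 160 and 100 CPM in controls and at 29.3, 38.4 and 15.8 CPM in mutants. It fell by 2.27 on the log2 scale (SE 0.29, edgeR adjusted p = 0.0432), with no overlap. The share of members with a UMI was 63.2% to 82.5% in controls and 22.9% to 36.5% in mutants, and its level in the progenitors of all embryos was 4.37 ± 3.26 CPM, against 79.3 ± 59.6 CPM in the members of all embryos.

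Svil, which encodes the actin-binding protein supervillin, was at 143, 144 and 97.7 CPM in controls and at 32.3, 42.6 and 29.6 CPM in mutants, a fall of 1.89 on the log2 scale (edgeR adjusted p = 0.0117). Selenom, which encodes a selenoprotein of the endoplasmic reticulum, was at 289, 309 and 252 CPM in controls and at 118, 131 and 124 CPM in mutants. It fell by 1.19 on the log2 scale (edgeR adjusted p = 0.0114) and had the smallest p of all genes tested. Both genes separated the genotypes in full. A Svil UMI was present in 36.2% to 52.8% of control members and 31.4% to 39.0% of mutant members, so these shares of cells overlapped where the levels did not.

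Gm17322, a long noncoding RNA on chromosome 9, was at 94.2, 107 and 74.7 CPM in controls and at 44.5, 31.7 and 35.2 CPM in mutants, a log2 change of -1.29 (edgeR adjusted p = 0.0499). It overlaps the start of Cyp11a1 on the same strand, so that reads of the overlap could be assigned to either. Cyp11a1, the first enzyme of steroid synthesis, was at 15.2 to 27.7 CPM in controls and 5.63 to 7.43 CPM in mutants. By level, on the plain CPM scale, Gm17322 was higher in the members than in all 3 neighbours in 6 of 6 libraries, at 64.1 ± 31.2 CPM in the members, 20.1 ± 10.2 in the migrating cells and 0.28 ± 0.33 in the progenitors.

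Hrk lies at chr5:118164648-118189478 on the plus strand, Rab15 at chr12:76797960-76822908 on the minus strand and Selenom at chr11:3514684-3517351 on the plus strand (GRCm38, the build of mm10, GENCODE M21 annotation). Because ATOH1 binds E-boxes, the promoters of these 3 genes and of the marker Barhl1 are printed. Each is the RefSeq window (GRCm38.p6) of 250 bases before to 50 bases after an annotated start, 5′ to 3′ on the strand of the gene. Capitals mark CAGCTG, or CAGATG and its reverse complement CATCTG. The first motif is found in 16.3% and the second, on either strand, in 17.2% of all 32851 promoter windows.

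Hrk, chr5:118169514-118169813, plus strand: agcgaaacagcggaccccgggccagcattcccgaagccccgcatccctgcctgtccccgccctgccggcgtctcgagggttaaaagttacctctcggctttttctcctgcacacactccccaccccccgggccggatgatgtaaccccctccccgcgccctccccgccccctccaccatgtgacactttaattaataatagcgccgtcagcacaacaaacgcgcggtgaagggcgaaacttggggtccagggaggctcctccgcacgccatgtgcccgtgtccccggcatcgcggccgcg

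Rab15, upstream start, chr12:76822475-76822774, minus strand: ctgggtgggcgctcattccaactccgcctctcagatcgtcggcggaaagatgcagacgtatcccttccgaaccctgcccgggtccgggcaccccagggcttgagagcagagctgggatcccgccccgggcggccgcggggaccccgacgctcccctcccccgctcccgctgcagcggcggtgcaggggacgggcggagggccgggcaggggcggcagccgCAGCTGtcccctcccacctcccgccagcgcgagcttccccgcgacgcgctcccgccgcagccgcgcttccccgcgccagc

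Rab15, next start, chr12:76819047-76819346, minus strand: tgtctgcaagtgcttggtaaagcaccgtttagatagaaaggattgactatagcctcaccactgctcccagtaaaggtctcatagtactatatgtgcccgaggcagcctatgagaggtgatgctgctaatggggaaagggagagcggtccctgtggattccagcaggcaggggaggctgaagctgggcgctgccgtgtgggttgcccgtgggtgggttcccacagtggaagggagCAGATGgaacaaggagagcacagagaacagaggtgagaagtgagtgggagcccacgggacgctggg

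Selenom, chr11:3514434-3514733, plus strand: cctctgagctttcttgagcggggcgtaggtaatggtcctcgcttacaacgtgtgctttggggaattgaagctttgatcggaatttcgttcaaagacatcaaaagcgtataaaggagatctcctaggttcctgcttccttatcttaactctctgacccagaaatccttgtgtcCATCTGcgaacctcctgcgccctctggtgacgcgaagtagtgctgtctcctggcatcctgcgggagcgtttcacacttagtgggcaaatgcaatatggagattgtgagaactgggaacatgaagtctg

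Barhl1, upstream start, chr2:28916619-28916918, minus strand: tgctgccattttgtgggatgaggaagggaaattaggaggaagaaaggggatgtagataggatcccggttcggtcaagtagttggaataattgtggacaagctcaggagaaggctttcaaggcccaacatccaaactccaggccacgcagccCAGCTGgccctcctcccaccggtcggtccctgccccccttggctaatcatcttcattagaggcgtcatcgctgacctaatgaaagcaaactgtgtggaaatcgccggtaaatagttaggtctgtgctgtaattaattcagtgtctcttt

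The Hrk window holds neither motif. Rab15 has 4 annotated starts, and the windows of the other 2 hold neither motif. The upstream Rab15 window holds CAGCTG from 30 bases before the start and the next holds CAGATG from 16 bases before, while the Selenom window holds CATCTG from 78 bases before and the Barhl1 window CAGCTG from 99 bases before. Of the 15 windows of 9 genes searched (these 4, Ebf1, Ednrb, Dll1, Hes5 and Atoh1), 6 hold a motif, more than 1 each in Rab15 and Barhl1. The share of all windows with either motif was not computed, and Svil was not searched. An unprinted Dll1 window holds CAGCTG from 132 bases before the start, and the Ebf1 windows hold neither motif. With the litter pair in the fit (below), Dll1 rose and Ebf1 fell. A match is a match of letters, and binding was not measured here.

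The 5 calls depended on single libraries and on the choice of cells. Without control 1, control 2 or mutant 3 no gene passed (472, 322 and 370 genes at an unadjusted p under 0.05), without control 3 there were 3 calls, without mutant 1 there were 6 and without mutant 2 there were 13. With the 4 libraries of Cell Ranger 5.0.1 alone, where control 3 was the only control and was assumed to vary like the mutants, no gene was called, with 314 at an unadjusted p under 0.05. Hrk was not called with a mitochondrial limit of 5% (edgeR adjusted p = 0.0639) or among members without a UMI of Mki67 or Top2a (0.255). Rab15 and Gm17322 were not called with equal numbers of cells (0.122 and 0.144) or without likely doublets (0.0514 and 0.0617), and Gm17322 was not among members without Mki67 or Top2a (0.0736). Without the detection filter all 5 were called. The direction of all 5 genes was the same in each of the 18 alternatives, and their log2 changes ranged from 1.97 to 2.56 for Hrk, -2.54 to -1.87 for Rab15, -2.06 to -1.50 for Svil, -1.27 to -1.02 for Selenom and -1.45 to -0.94 for Gm17322.

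With the litter pair as a replicate block, 47 genes were called (0.49% of those tested), 16 higher (0.167%) and 31 lower (0.323%) in the mutant, and these included all 5. In pairs 1 and 2 the control was written by Cell Ranger 3.1.0 and the mutant by 5.0.1. The block cannot tell version from genotype in these pairs, and the fit with the block was not run with libraries left out. This holds for every call with the block given below. Ebf1, a helix-loop-helix factor of early neuron differentiation, was at 369, 484 and 390 CPM in controls and 146, 218 and 178 CPM in mutants. Its log2 change of -1.20 ± 0.16 narrowly missed the threshold without the block (edgeR adjusted p = 0.051) and passed with it (2.31e-05). The genotypes did not overlap, as was so for 5.83% of all tested genes in that direction and 4.9% in the other.

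The largest rises with the block and the same sign in all 3 pairs were Ttr, Tesc, Hrk, Prss23 and Ldb2. Ttr, which encodes transthyretin and is made in the choroid plexus, was at 22.8, 7.07 and 38.2 CPM in controls and at 69.0, 530 and 1260 CPM in mutants. In mutant 2, 1 cell held 1559 of 1640 Ttr UMIs, and in mutant 3 the 3 top cells held 5757 of 6941, so most of those levels came from a few cells. With the Ttr UMIs of the 3 top cells of each library left out, Ttr was at 19.5, 3.47 and 32.6 CPM in controls and 51.5, 24.5 and 217 CPM in mutants, still higher in the mutant of each pair but with overlap between genotypes. A Ttr UMI was found in 9.28% to 40.8% of the members of each control and in 56.6%, 36.5% and 97.3% of those of mutants 1 to 3, and the part of free RNA in this was not tested. Tesc, a calcium-binding protein gene, was at 1.75, 1.18 and 5.64 CPM in controls and 22.3, 2.91 and 17.1 in mutants. Prss23, a serine protease gene, was at 2.94 to 6.31 CPM in controls and 12.6 to 21.6 CPM in mutants, and Ldb2, a LIM-domain binding cofactor, at 2.45 to 3.47 and 6.64 to 22.3 CPM. Hrk, Tesc, Prss23 and Ldb2 were found in under 10% of control members (8.98%, 2.67%, 6.55% and 4.61%) and reached the detection filter through the mutant members (24.2%, 11.7%, 18.8% and 11.7%), as 11 of the 47 genes did through 1 genotype only, so their place among the greatest rises follows in part from the filter.

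The largest falls with the block and the same sign in all 3 pairs were Rab15, Svil, Cyp11a1, Hspb1 and Pvalb. Hspb1, a small heat shock protein gene, was at 36.1, 18.3 and 27.4 CPM in controls and 11.8, 6.46 and 10.3 CPM in mutants (log2 change with the block -1.51, edgeR adjusted p = 0.00207). Pvalb, the calcium buffer parvalbumin, was at 63.8, 87.2 and 30.8 CPM in controls and 13.7, 47.5 and 14.3 CPM in mutants, lower within each pair with overlap between genotypes. Cyp11a1 and Pvalb were found in 8.76% and 8.21% of mutant members and reached the detection filter through the control members (20.4% and 15.8%), where they were high, so their place among these falls follows in part from the filter. AC160336.1 had a larger fitted fall with the block (log2 change -6.44), but it was lower in the mutant of pairs 1 and 2 only. It was at 384 and 575 CPM in controls 1 and 2, the libraries written by Cell Ranger 3.1.0, and at 2.61 CPM in control 3.

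**Figure D3:**
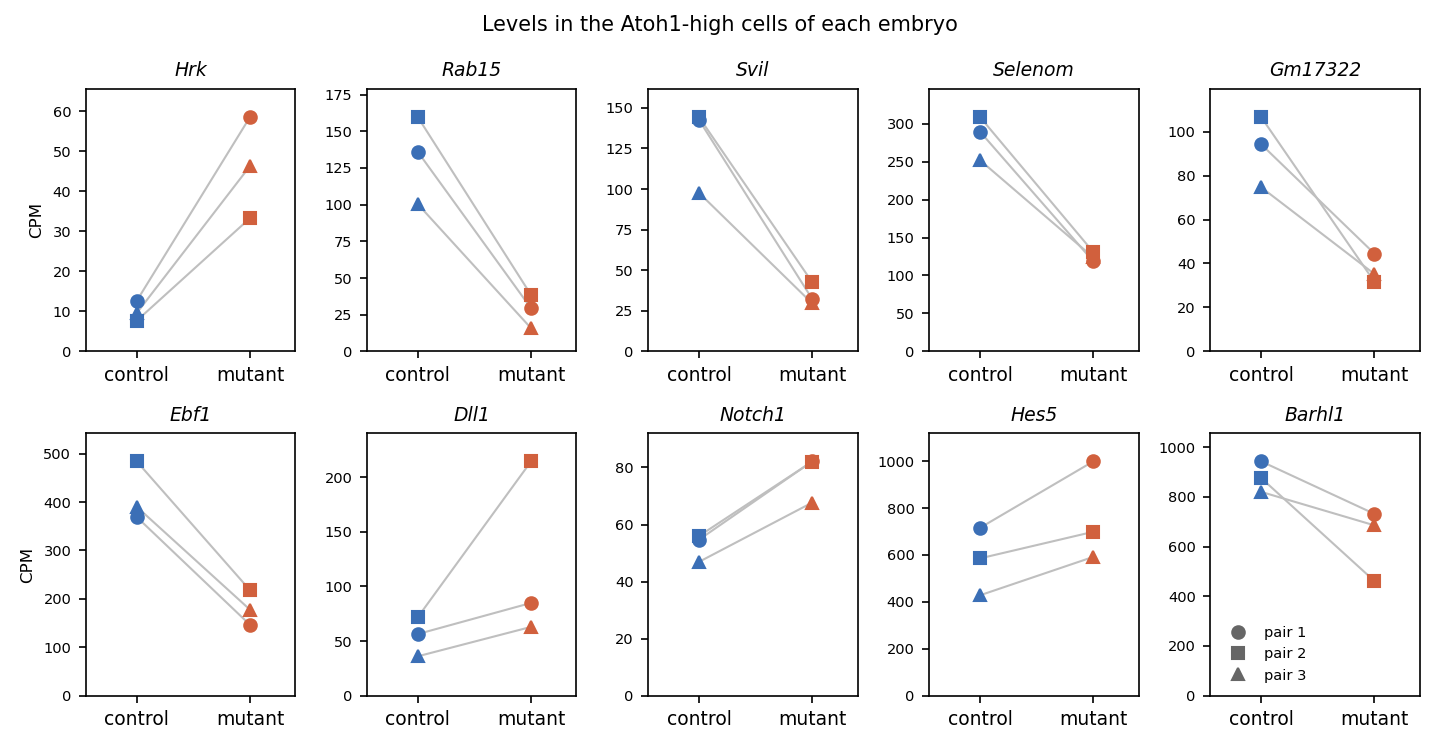
CPM scaled by TMM in the Atoh1-high members (y axes, from 0), with 1 point per embryo and grey lines joining littermates. The top row holds the 5 called genes, Hrk higher and Rab15, Svil, Selenom and Gm17322 lower in every mutant than in every control, and the bottom row holds genes whose call needed the replicate block (Ebf1, Dll1, Notch1) or that were not called (Hes5, Barhl1).

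Atoh1 itself, as a rule gene, was at 590 ± 77.8 CPM in control members and 566 ± 50.3 CPM in mutant members (SD, n = 3 each), a description without a test. The Hoxb genes of the rule were at 401 ± 17.8 CPM in controls and 326 ± 33.1 CPM in mutants for Hoxb2 and at 242 ± 56.3 and 230 ± 14.4 CPM for Hoxb4. Hoxb3 was at 263, 246 and 274 CPM in controls and 224, 195 and 209 CPM in mutants. Barhl1 was at 943, 876 and 821 CPM in controls and at 732, 461 and 686 CPM in mutants. The genotypes did not overlap, and the log2 change of -0.49 ± 0.16 was not called without the block (edgeR adjusted p = 0.855) or with it (0.0826). Mutant 2 stood lowest, and 66.7% of its members had a Barhl1 UMI, against 89.1% to 94.5% in the other 5 libraries.

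Of the Notch ligands, 5 of 7 were tested, none was called without the block and Dll1 rose with it, as did 0.167% of all tested genes. The list had a median log2 change of 0.32, beside 0.01 over all tested genes. Dll1 was at 56.4, 71.8 and 36.0 CPM in controls and 84.9, 215 and 63.0 CPM in mutants. It was higher in the mutant of each pair, though mutant 3 lay below control 2. The log2 change with the block was 1.00 ± 0.16 (edgeR adjusted p = 0.017, against 0.99 without the block). Dner, Dll4 and Jag1 had log2 changes of -0.45, 0.61 and 0.32 and were not called.

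Of 15 genes for Notch receptors, fringes and ligand processing, 12 were tested, and Notch1 alone was called, with the block, as were 0.49% of all tested genes. Notch1 was at 54.7, 55.9 and 46.9 CPM in controls and at 82.1, 82.1 and 67.7 CPM in mutants, with no overlap (log2 change with the block 0.56 ± 0.10, edgeR adjusted p = 0.0281). The receptor gene Notch2 was also without overlap, at 8.25 to 10.6 CPM in controls and 12.7 to 16.8 CPM in mutants, and was not called. Mfng, a fringe that modifies the receptors, had a log2 change of -0.39 and Maml2, a coactivator, one of 0.28.

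None of the 6 tested genes of the Notch effector list, which holds Hes6 and Gadd45g, was called in either fit. All 6 log2 changes were above 0, as were 52.7% of those of all tested genes, with a list median of 0.25. Hes5 was at 716, 585 and 428 CPM in controls and 999, 699 and 592 CPM in mutants. It was higher in the mutant of every pair, with overlap across pairs, and its log2 change of 0.40 ± 0.08 with the block had an edgeR adjusted p of 0.0543. Gadd45g (0.35 without the block), Nrarp (0.38), a feedback inhibitor of Notch, and the progenitor gene Hes1 (0.15) were not called.

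Of 24 tested precerebellar and dorsal interneuron transcription factors, 3 fell with the block (Ebf1, Nhlh2 and Mab21l2), beside 0.323% of all tested genes, and none rose, and the list median was 0.03. Nhlh2, a paralogue of the rule gene Nhlh1, was at 94.2, 82.4 and 95.1 CPM in controls and 62.2, 64.6 and 62.1 CPM in mutants (log2 change with the block -0.53 ± 0.10, edgeR adjusted p = 0.034). The mutants were below the controls with very little spread. Mab21l1, a cofactor of neural differentiation, was at 23.4 to 25.9 CPM in controls and 11.3 to 18.0 CPM in mutants and was not called. Of the proneural factors, 4 of 11 were tested, and Neurod6 fell with the block (0.323% of all tested genes did), from 30.5, 48.9 and 23.9 CPM to 14.8, 21.3 and 11.8 CPM. Atoh7, a close relative of Atoh1, was at 20.8 to 27.7 CPM in controls and 6.78 to 17.3 CPM in mutants and was not called.

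Genes of neuron differentiation and the cytoskeleton had mostly negative log2 changes. Of 42 tested, 38 had a log2 change below 0 (47.3% of all tested genes did), 14 had no overlap in that direction (5.83% of all tested genes), and the median was -0.31. None was called without the block and 1, Stmn2, fell with it (0.323% of all tested genes did). Stmn2, a microtubule regulator of growing axons, was at 370, 462 and 405 CPM in controls and at 252, 267 and 299 CPM in mutants (log2 change with the block -0.59 ± 0.09, edgeR adjusted p = 0.00999). Tubb3, the neuronal tubulin, had a log2 change of -0.35, Dpysl2 one of -0.35 and Dpysl3 one of -0.37, each without overlap and not called.

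Among 37 tested genes of migration and axon guidance, 2 fell (Svil and Rab15) and none rose, beside 0.0417% and 0.0104% of all tested genes. The list was written with earlier results of these data known, and its holding both genes is no independent evidence. L1cam, an adhesion molecule of axons, was at 11.3 to 20.6 CPM in controls and 5.17 to 6.53 CPM in mutants, and Epha7, an ephrin receptor gene, at 41.2 to 46.9 and 51.0 to 71.4 CPM. Neither was called, and L1cam reached the detection filter through the control members (18.0%, against 9.74% of mutant members). The list median was -0.03.

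The cell cycle lists held no called gene between genotypes within the members. None of 30 tested S phase genes and none of 36 G2 and M phase genes was called in either fit, with medians of 0.09 and 0.05. Ccnb1, the cyclin gene of entry into mitosis, had the smallest p of the G2 and M phase list, with a log2 change of 0.31. Of 18 rhombic lip progenitor genes tested, Zfp36l1, a factor of mRNA decay, rose with the block (0.167% of all tested genes did), from 124, 73.0 and 114 CPM to 167, 116 and 165 CPM, and the median was 0.11. None of 11 D cyclin and CDK inhibitor genes was called, with a median of 0.08, and Cdkn1c had a log2 change of 0.26.

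Of the 24 cell death genes tested, Hrk alone was called (0.0521% of all tested genes were), and the list median was -0.01. Apaf1, which activates caspase 9 in the apoptosome, was at 6.51 to 8.24 CPM in controls and 10.5 to 11.3 CPM in mutants, without overlap and not called. Bax, a pore-forming BCL2 protein gene, was at 267 to 299 and 228 to 263 CPM, also not called. The genes that the study itself names for these cells, chosen on these samples and so not independent evidence, include Hrk, Rab15, Barhl1, Pcp4, Pak3 and Dap. Nhlh1, also among them, is a gene of the rule and was not compared. Pak3 was at 90.7, 134 and 106 CPM in controls and 118, 184 and 90.7 CPM in mutants (log2 change 0.25 ± 0.24), and Dap at 38.3 to 77.1 and 45.2 to 71.2 CPM (0.08 ± 0.24). Pcp4 was lower in the mutant of every pair, at 122, 237 and 69.5 CPM in controls and 31.0, 155 and 58.1 CPM in mutants, and was not called.

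None of 11 tested Wnt and BMP pathway genes was called, with a median of 0.18, the receptor gene Bmpr1a at 33.6 to 45.5 CPM in controls and 48.3 to 59.1 CPM in mutants. None of 15 tested Hox genes and cofactors outside the rule was called, with a median of 0.12 and Hoxb5 at a log2 change of 0.49. The 30 ribosomal protein genes had a median of -0.09 and none was called. Of 14 tested genes of the dissociation response, none was called, with a median of 0.02. The immediate early genes Fos and Egr1 had log2 changes of 1.32 and 1.53, Fos at 10.0 to 31.3 CPM in controls and 35.0 to 84.0 CPM in mutants.

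The 11 roof plate and choroid plexus genes, all with a UMI in the members, summed to 299 to 371 CPM in controls and 532 to 1703 CPM in mutants, against 990 to 17326 CPM in the remaining kept cells. Much of the sums of mutants 2 and 3 was Ttr of a few cells, and without Ttr the list summed to 348, 296 and 263 CPM in controls and 463, 500 and 429 CPM in mutants. A large part of these sums was Msx1, at 213, 209 and 129 CPM in controls and 204, 374 and 174 CPM in mutants. Msx1 is also in the rhombic lip progenitor list and was at 340 ± 122 CPM in the progenitors. Otx2 is among the 8 genes with the highest ratio in the members, so the sum does not measure other cells alone. Otx2 and Rspo3 of the roof plate and choroid plexus list had log2 changes of 0.71 and 1.45 and were not called. Rspo3 reached the detection filter through the mutant members (10.7%, against 4.37% of control members). The rostral rhombic lip and granule list summed to 150 to 184 CPM in controls and 90.3 to 194 CPM in mutants, the inhibitory neuron list to 95.9 to 136 and 66.8 to 158 CPM, the glia list to 25.4 to 47.2 and 26.5 to 75.5 CPM, and the blood, vessel and mesenchyme list to 11.6 to 52.2 and 9.27 to 116 CPM. Much of the first 2 sums came from 1 gene each that most members held. Scaled by TMM, Reln of the rostral list was at 73.0 to 103 CPM in controls and 52.0 to 104 CPM in mutants. Lhx1 of the inhibitory list was at 84.8 to 123 and 54.3 to 124 CPM. They were found in 65.8% and 57.2% of the members, so these sums do not measure other cells alone. Of the rostral, inhibitory and blood lists 3, 2 and 3 genes were tested and none was called. In the last list Cdh5, Csf1r, C1qb and Cx3cr1 were at 0 in the members. The glial and progenitor factor Olig2 rose and the matrix gene Tnc fell with the block, Olig2 from 13.7, 1.77 and 18.7 CPM to 51.7, 2.91 and 41.9 CPM and Tnc from 16.5, 14.7 and 17.4 CPM to 7.01, 8.40 and 6.90 CPM. Olig2 reached the detection filter through the mutant members (12.9%, against 6.07% of control members) and Tnc through the control members (11.7%, against 7.51%), so that these calls follow in part from the filter. The part of other cells in the genotype changes was not tested. Without the 7.5% of kept cells with the highest Scrublet doublet scores, 3 genes were called.

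The third comparison asked whether the genotype change of a gene in the members differed from that in a neighbouring state of the same embryos. Against the Nhlh1-positive migrating cells, 2 of 10400 genes did (0.0192%). Members held no Nhlh1 UMI and migrating cells held at least 2. Relative to its members, every control lost more cells at the Nhlh1 limit than every mutant. The members of the genotypes may thus be cut at unlike points, and the part of this in the differences below was not tested. Ebf1 was at 374, 475 and 375 CPM in control members and 148, 223 and 180 CPM in mutant members, while in the migrating cells it was at 878, 1152 and 888 CPM in controls and 750, 1045 and 793 CPM in mutants. In the members every mutant was below every control, while in the migrating cells the genotypes overlapped and the mutant was lower in each pair. The difference of the log2 changes was -1.0 ± 0.08 (edgeR interaction, adjusted p = 0.000163).

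Kif21b, which encodes a kinesin of neuronal microtubules, was at 44.7, 61.2 and 56.4 CPM in control members and 28.5, 28.8 and 33.2 CPM in mutant members. In the migrating cells it was at 114, 149 and 143 CPM in controls and 133, 136 and 140 CPM in mutants. The difference was -0.86 ± 0.11 (edgeR adjusted p = 0.0167). Both genes were higher in the migrating cells than in the members of every embryo. Ebf1 was called without each library in turn. Kif21b was not called without control 1, control 2, control 3 or mutant 1, with adjusted p-values (edgeR) of 0.0805, 0.185, 0.159 and 0.103, and Ebf1 was then the 1 call. Without mutant 2 there were 16 calls and without mutant 3 there were 4.

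Against the Hox-positive progenitors 1 of 10576 genes differed (0.00946%). Ednrb, the endothelin receptor B gene, was at 1.77, 0.58 and 0.84 CPM in control members, from 5, 1 and 2 UMIs, and at 9.32, 10.9 and 9.36 CPM in mutant members, from 50, 33 and 51 UMIs. In the progenitors it was at 36.7, 42.6 and 26.7 CPM in controls and 13.3, 16.4 and 19.9 CPM in mutants. Ednrb was found in 1.46% of control and 5.84% of mutant members and reached the 10% detection filter through the progenitors (15.5% of control and 11.8% of mutant cells), so its value in the members is given as a description. The fitted difference of log2 changes was 4.12 ± 0.43, which depends on the very low control counts. When control 1, control 2 or control 3 was left out, neither Ednrb nor another gene was called by edgeR (483, 498 and 453 genes at an unadjusted p under 0.05). Without mutant 1 there were 2 calls and without mutant 2 there were 13.

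**Figure D4:**
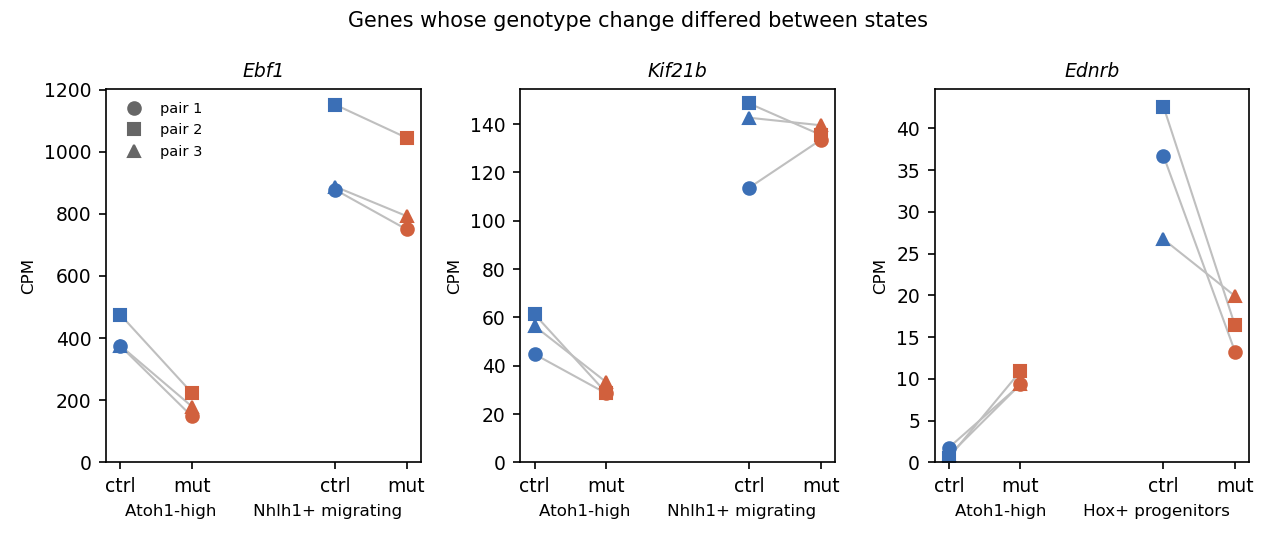
CPM (y axes, from 0) of the 3 genes whose genotype change differed between states, with 1 point per embryo and grey lines joining littermates, for the Atoh1-high members (left pair of each panel) and the compared state (right pair). Ebf1 and Kif21b are lower in every mutant than in every control in the members and overlap between genotypes in the migrating cells, where Ebf1 is lower in the mutant of each pair, and Ednrb, from 1 to 5 UMIs in each control library, is near 0 in control members.

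The members also varied among themselves. Within each library they were ranked by the Atoh1 share of their UMIs and split at the median into a lower and an upper set, and the sets were compared across the 6 libraries with the library as a term. Atoh1 is a gene of the rule, and with a floor of 4 UMIs a low share is found in deep cells. The counts of genes past the threshold below therefore only describe these sets, and no conclusion about Atoh1 is drawn from them. The median Atoh1 count was 6 to 8 UMIs in the lower sets and 9 to 16 in the upper sets, and the lower set was the deeper one in 5 of 6 libraries.

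Of 9748 genes 1110 passed the threshold (11.4%), 393 higher (4.03%) and 717 lower (7.36%) in the upper set. Of the 1110, 265 reached the 10% detection filter in 1 of the sets only. Ranked within 4 depth bins of each library, 495 of 9629 genes passed (5.14%), 150 higher (1.56%) and 345 lower (3.58%). With the gate and the sets taken on cells thinned to 8000 UMIs, 8 of 7462 genes passed, and 543 of 732 genes of the first ranking kept their sign. The values below are therefore given beside those on thinned cells where these exist. Atoh1 itself differed less between the thinned sets, with a log2 change of 0.78, against 1.15 in the first ranking and 1.04 within depth bins. Thinned cells also hold fewer UMIs, so smaller values or lost calls there cannot be assigned to depth alone.

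Of the 32 S phase genes in the first ranking 30 were lower in the upper set (median log2 change -1.48), as were 36 of 37 G2 and M phase genes (-1.63). Within depth bins these were 21 of 32 (-0.57) and 14 of 36 (-0.37), and on thinned cells none of 18 and none of 12, with medians of -0.16 and -0.15. Rhombic lip progenitor genes were lower for 11 of 19 (-0.58), within depth bins for 12 of 18 (-0.47) and on thinned cells for none of 18 (-0.03). All 5 roof plate and choroid plexus genes were lower in the first 2 rankings (-2.29 and -1.85), while on thinned cells none of 3 passed and the median was 0.35.

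Of 6 genes of the Notch effector list 4 were higher in the upper set in the first ranking and within depth bins (medians 0.34 and 0.33), and 2 of 5 were on thinned cells (0.31). These 2 were Gadd45g, a growth arrest gene, and Hes6, an antagonist of HES1. Hes1 and Nrarp of that list had log2 changes of 0.07 and -0.11 in the first ranking and did not pass. Gadd45g was at 1284 ± 476 CPM in the lower and 2112 ± 729 CPM in the upper sets (SD, n = 6), a log2 change of 0.75 that was 0.60 within depth bins and 0.31 on thinned cells. Hes6 was at 717 ± 139 and 894 ± 184 CPM, with log2 changes of 0.32, 0.31 and 0.33 in the 3 rankings. Both were higher in the upper set of 6 of 6 libraries in the first ranking.

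The labelled markers had smaller differences on thinned cells. Barhl1 had log2 changes of 0.60, 0.41 and 0.13 in the 3 rankings, Hes5 of 0.36, 0.35 and 0.19 and Dll1 of 0.37, 0.37 and 0.07, and none of these 3 passed on thinned cells. Of 5 Notch ligands 2 were higher in the first ranking, 2 within depth bins and none of 4 on thinned cells. The ligands were not the same, since Dll4 passed in the first ranking only and Dll1 within depth bins only. The 15 Hox genes and cofactors had a median of 0.54 with 5 higher and 1 lower (within depth bins 0.33, 4 higher and 1 lower), and on thinned cells a median of -0.04 with none passing. The 24 precerebellar and dorsal interneuron factors had a median of 0.19 with 8 higher and 1 lower (within depth bins 0.11, 4 higher and 1 lower), and on thinned cells, with 23 genes, of -0.03 with none passing. Of 42 genes of neuron differentiation 7 were higher and 3 lower (0.15), within depth bins 4 were higher and 4 lower (0.06), and on thinned cells none was higher and 3 were lower (-0.17).

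Among the 8 genes with the highest ratio to the neighbouring states, Otx2 differed most between the sets. It was at 219 ± 111 CPM in the lower and 39.0 ± 21.8 CPM in the upper sets, lower in 6 of 6 libraries, with log2 changes of -2.50, -1.26 and -0.85 in the 3 rankings, the last not passing. Chodl had log2 changes of 0.86, 0.74 and 0.30 and Hsd11b2 of 0.63, 0.45 and 0.24, neither passing on thinned cells.

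The genes with the greatest rises in the first ranking and 1 sign in all libraries were Dll4, 4930550C14Rik, Eya2, Cd79a, Dnajc28 and Prmt8. Eya2, a transcriptional coactivator and phosphatase found in 41.4% of the members, was at 31.9 ± 6.12 and 66.2 ± 5.87 CPM, with log2 changes of 1.09, 0.76 and 0.38, the last not passing. Dll4, 4930550C14Rik, Cd79a and Dnajc28 reached the detection filter in the upper set only. The greatest falls, Pmp22, Hpgd, Cpne2, Cntn1, Lmx1a and Wnt9a, were found in 6.01% to 7.52% of the members and reached the filter in the lower set only, so their place at the head of the list follows in part from the filter.

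**Figure D5:**
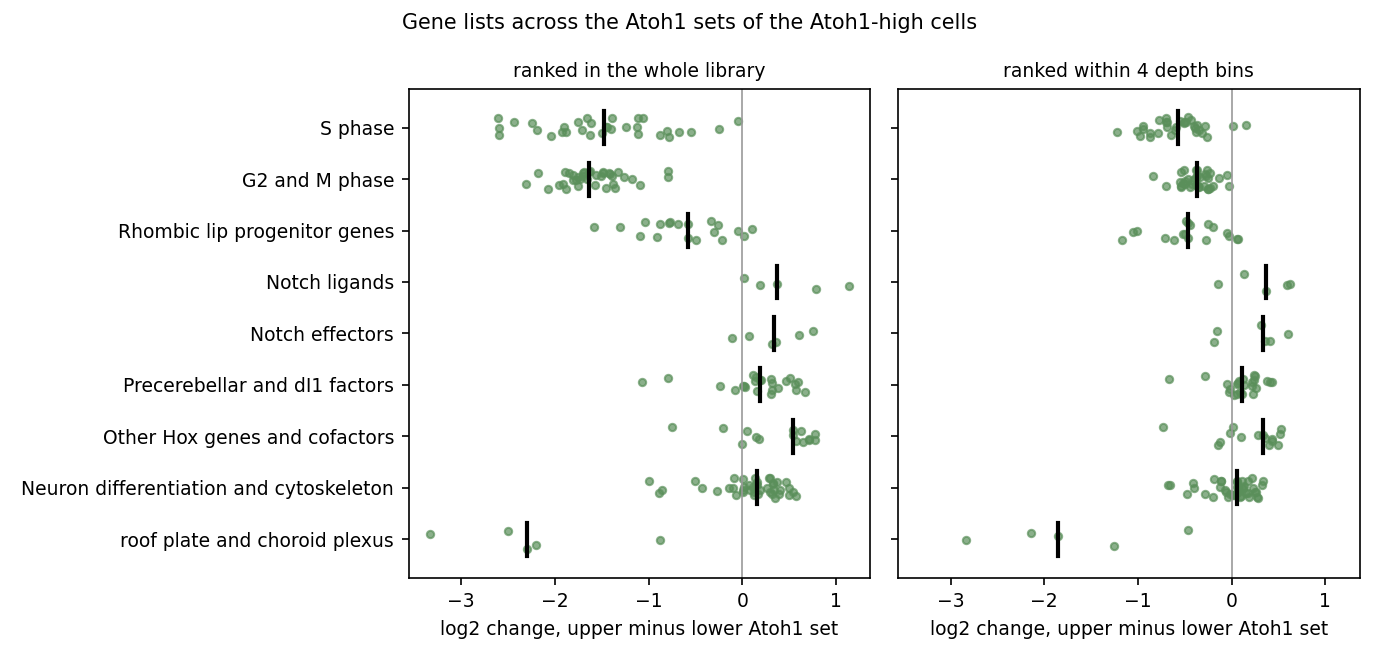
Log2 change between the upper and lower Atoh1 sets of the members (x axes), with 1 point per gene and a black bar at the list median, for sets ranked in the whole library (left) and within 4 depth bins (right). Medians move towards 0 on the right for S phase (-1.48 to -0.57) and G2 and M phase genes (-1.63 to -0.37), and thinned cells, where they were -0.16 and -0.15, are not drawn.

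Leaving out 1 library moved the number of genes past the threshold in the first ranking to 297 without mutant 3, 398 without mutant 1 and 1518 without control 2, and it stayed between 828 and 1057 without each of the others.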

How the data were processed

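Droplet 3′ single-cell libraries were made from sorted TdTom+ DAPI- hindbrain cells of 6 embryos at E14.5, 1 embryo per library. The authors aligned the reads to mm10 with a WPRE sequence added and deposited raw UMI counts per gene and cell from Cell Ranger (version 3.1.0 in 2 matrix headers, 5.0.1 in 4). Library totals were 121762137 to 193872318 UMIs over all barcodes. Precision within the members was set by 1731286 to 5450688 summed UMIs per library.

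The members, gates and gene lists were chosen with earlier results of these data known. UMIs were summed per library over the cells of a state and tested with edgeR 4.0.16 (quasi-likelihood, TMM, R 4.3.3) after leaving out genes found in under 10% of cells of each group, at FDR 0.05 and an absolute log2 change over 0.25. The 8 rule genes were left out of the tests and kept in library sizes. The study tested single cells; sums were used here because cells of an embryo are not replicates. No doublets were removed in the values reported, and the alternative without them used Scrublet. Scripts were tested on simulated data.

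Each mutant was collected with a littermate control, so the pair was used as a replicate block in a second fit. Deviations from the genotype means correlated at 0.310, 0.433 and 0.435 within pairs and at -0.381 to -0.0224 across them. The deviations of a genotype sum to 0, so positive values within pairs go with negative ones across them by construction. The negative values are therefore no separate evidence of a litter effect. Pair 1 differed in embryo sex. Genes that tell the sexes apart are not named, and L1cam and Pak3 lie on chromosome X. Genes are named if they are markers, were called, were named by the study for these cells, were among the 4 with the smallest p in a list, were among the 5 largest changes each way with the block, were among the 6 largest each way between the Atoh1 sets, or had one of the 8 highest ratios to the neighbouring states. Cyp11a1 overlaps Gm17322, and AC160336.1 was singled out after its values were seen.

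DESeq2 1.42.0, other filters, gates and left-out libraries were tried as alternatives. The other 8 libraries of the series were not used here.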

Additional observations from a re-analysis of the deposited data

Results flagged for a closer look

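The difference between the genotype change in the Atoh1-high members and that in a neighbouring state was itself tested for each gene, and 3 genes were past the threshold. For Ednrb the change in the members exceeded that in the Hox-positive progenitors by 4.12 on the log2 scale, on 5, 1 and 2 UMIs in the control members. Ednrb was in 4.24% of the members and reached the detection filter through the progenitors, so this value is a description. For Ebf1 the difference from the Nhlh1-positive migrating cells was -1.0, and for Kif21b it was -0.86. The causes were not tested.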

How the results depend on the processing

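The mean share of members stayed higher in the mutant under every alternative run and passed no test. On thinned cells pair 1 turned for the share of Pax6 and Hoxb positive cells (14.3% in control 1, 13.7% in mutant 1). Leaving out 1 library moved the difference from 0.747 to 1.69 percentage points of kept cells and from 2.23 to 4.73 of Pax6 and Hoxb positive cells. With the replicate block the differences were 1.19 and 3.24 points, each with an exact sign-flip p of 0.25. The 5 genes called between genotypes became 47 with the replicate block, 19 with DESeq2, 64 without the detection filter, 3 without likely doublets, 0 with Cell Ranger 5.0.1 libraries only (edgeR, 314 at an unadjusted p under 0.05) and 0 to 13 when 1 library was left out. Genes that differed from the progenitors numbered 0 to 13, and from the migrating cells 1 to 16, when 1 library was left out. The 1110 genes past the threshold between the upper and lower Atoh1 sets, a description since Atoh1 is a rule gene, became 1666 without the detection filter. They became 8 on cells thinned to 8000 UMIs, where fewer genes were tested and the sets differed less in Atoh1, 495 within depth bins and 297 to 1518 when 1 library was left out. Otherwise the cause was not tested. The depth bins, the stricter Hoxb limit (7 genes called between genotypes) and the sums without Ttr or its top cells were chosen after seeing the data. Over 104 named genes, 51 values lost and 48 gained a call, and none changed sign with a call. Genes at a few CPM, such as Ednrb, rest on few UMIs.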

Other observations

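Some of the genes called with the replicate block lay close to each other in the genome (GRCm38). Tesc and Hrk, both higher in the mutant with log2 changes of 2.37 and 2.21, lie on chromosome 5 with 102769 bases between them. Churc1 and Rab15, both lower with log2 changes of -0.60 and -2.29, lie on chromosome 12 with 14779 bases between them. Hspa2, with a log2 change of -1.10, lies 358599 bases from Churc1. Glce and Calml4 on chromosome 9, 735424 bases apart, had log2 changes of -0.83 and 1.24. Tesc, Hrk and Calml4 reached the 10% detection filter through the mutant members, where they were high (Calml4 14.3%, against 9.71% of control members). These pairs were picked after their values were seen, and whether called genes lie closer than other genes was not tested.

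Of the members, 19 (1.68%) held at least 10 Ttr UMIs.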
